A study of Mus musculus with 6 samples.

Results

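The cyclin D, CDK inhibitor and p53 genes are a set of G1 regulators: the D-type cyclins Ccnd1, Ccnd2 and Ccnd3, the CIP/KIP inhibitors Cdkn1a (p21), Cdkn1b (p27) and Cdkn1c (p57), the Cdkn2a locus, Trp53 with its regulator Mdm2, and the unconventional cyclin Ccng2. They were taken by name as rows of the deposited gene table mapped to mouse symbols by the GENCODE M21 annotation. All 10 were among the 55426 features of the table, and all 10 passed the filter on low counts along with 16207 genes in total.

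RNA-seq profiles came from primary mouse pancreatic stellate cells (PSCs), fibroblast precursors isolated from wild-type C57BL/6 mice of both sexes aged 8 to 12 weeks and used at low passage. The PSCs were embedded in Matrigel in a transwell insert above mT3 pancreatic tumor organoids, a line derived from a mouse tumor with a mutant Trp53 allele, in a model driven by Pdx1-Cre. The cocultures were held for 48 h at 21% O2 (normoxic, n = 3) or at 1% O2 (hypoxic, n = 3), and the PSCs were sequenced. Thus the organoids carried a mutant Trp53 allele and the sequenced PSCs were derived from wild-type mice, and there were no PSCs cultured alone. The labels number the replicates 1 to 3 in each condition without saying whether a number marks a separate PSC line, so p-values measure the spread between these samples, which may be technical.

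Library totals ranged from 24749601 to 25914892 counts in normoxic and from 25847719 to 31925054 counts in hypoxic samples. All 12 hypoxia-inducible genes of a check list, such as the carbonic anhydrase Car9, were higher at 1% O2. Car9 rose from 1.98 ± 0.261 to 69.2 ± 5.55 CPM (counts scaled to the library total with TMM factors, mean ± SD, n = 3). Fibroblast and stellate markers were abundant in every sample, with a summed level of 28460 to 35660 CPM in normoxic and 30500 to 35340 CPM in hypoxic PSCs, and 2 of 12 were called higher and 2 lower. By the rule given below, 18.9% of all tested genes were called higher and 15.3% lower. Of 15 immune markers 13 were tested, 8 were called lower and 0 higher. Their summed level was 904 to 1582 CPM in normoxic and 475 to 848 CPM in hypoxic samples, made mostly by macrophage genes, while the T cell gene Cd3e had 0 counts in every sample. Of 12 epithelial markers 3 were tested and 1, Krt19, was called higher (0.715 ± 0.298 to 22.1 ± 1.66 CPM). The summed epithelial level was 3.26 to 5.40 CPM against 25.1 to 29.0 CPM, and Krt19 made up most of the hypoxic sum. Esrp1 had 0 counts throughout. Of 8 endothelial markers 7 were tested, 2 were called higher and 1 lower, with sums of 16.1 to 22.4 and 25.7 to 35.0 CPM. Of 8 acinar markers 1 was tested and 0 were called, and Prss2, Cpa1, Amy2a5 and Ctrb1 had 0 counts in all 6 samples.

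In G1, D-type cyclins bind Cdk4 and Cdk6 and begin the phosphorylation of the retinoblastoma protein, which frees E2F factors to switch on the genes of DNA replication. CIP/KIP proteins bind and inhibit cyclin-CDK complexes, above all those of Cdk2, and INK4 proteins block Cdk4 and Cdk6 directly. The transcription factor p53 induces Cdkn1a, and also Mdm2, the ubiquitin ligase that in turn degrades p53. Stellate cells are quiescent in the healthy pancreas and enter the cell cycle when activated.

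The comparison asked which arrest genes accompanied the loss of proliferation transcripts in hypoxic PSCs. A gene was called when the edgeR quasi-likelihood test gave a Benjamini-Hochberg adjusted p below 0.05 and the fold change exceeded 1.5 in either direction. By this rule 5 members were higher at 1% O2 (Ccng2, Cdkn1b, Cdkn1c, Cdkn1a and Mdm2), 1 was lower (Ccnd1), and 4 were not called (Ccnd2, Ccnd3, Cdkn2a and Trp53). Among all tested genes 34.2% were called, 18.9% higher and 15.3% lower, against 60% of the members. Members and the lists below were chosen with earlier results of these data known, so such shares are no independent test. In 8 of the 10 members the normoxic and hypoxic samples did not overlap, which held for 68.9% of all tested genes. All hypoxic samples were above all normoxic ones in 6 members (34.9% of all tested genes) and below them in 2 (34.0%). Without the fold threshold 8 members passed the test, as did 62.7% of all tested genes. The median log2 fold change (1% over 21% O2) was 0.42 over the members and -0.004 over all tested genes.

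**Figure D1:**
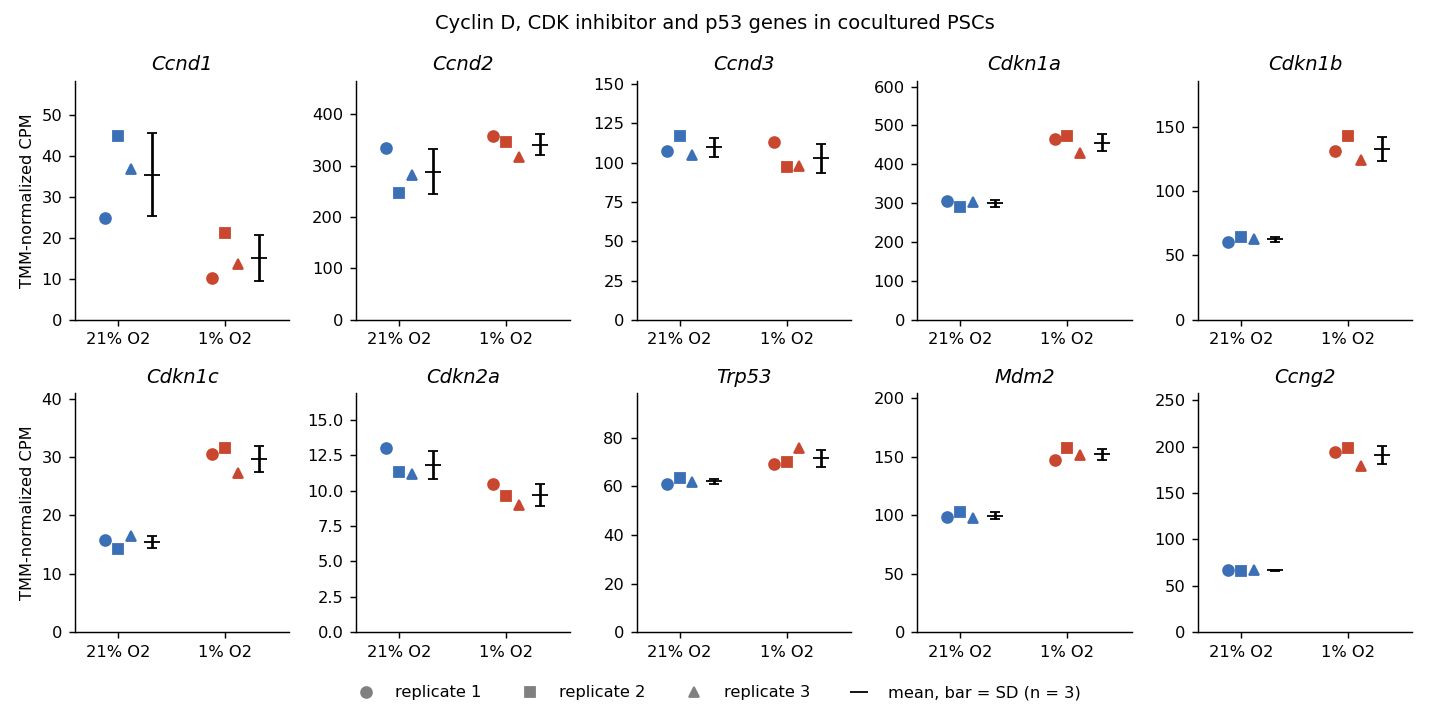
Level of each gene in each sample as TMM-normalized CPM (vertical axes, each starting at 0) at 21% and 1% O2, with the replicate number given by the marker shape and mean ± SD (n = 3) in black. Ccng2, Cdkn1a, Cdkn1b, Cdkn1c and Mdm2 lay higher in all 3 hypoxic samples, Ccnd1 lay lower with a wide spread within each condition, and Ccnd2 and Ccnd3 overlapped between conditions.

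Within the D-type cyclins, which pass growth factor and integrin signals to the cell cycle machinery, the members went different ways. Ccnd1 (ENSMUSG00000070348, chromosome 7, GRCm38 144929931 to 144939925, minus strand) measured 24.8, 44.9 and 36.8 CPM in normoxic replicates 1 to 3 and 10.3, 21.3 and 13.8 CPM in hypoxic replicates 1 to 3. All hypoxic samples were below all normoxic ones, although the highest hypoxic and the lowest normoxic value were close. Ccnd1 fell by 1.22 on the log2 scale (SE 0.27, 95% confidence interval -1.82 to -0.62, edgeR adjusted p = 0.00321), a level 2.33-fold lower.

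Ccnd2 (ENSMUSG00000000184, chromosome 6, 127125162 to 127152193, minus strand) measured 334.7, 247.6 and 281.1 CPM at 21% O2 and 357.2, 346.2 and 317.4 CPM at 1% O2. The conditions overlapped, since normoxic replicate 1 lay above hypoxic replicate 3. Its log2 fold change of 0.24 (SE 0.10, 95% confidence interval 0.01 to 0.47) did not pass the test (edgeR adjusted p = 0.0658). Ccnd3 (ENSMUSG00000034165, chromosome 17, 47505051 to 47599691, plus strand) measured 107.2, 116.8 and 104.8 CPM in normoxic and 113.3, 97.0 and 97.7 CPM in hypoxic samples. These groups also overlapped, and the interval of the log2 fold change reached from -0.26 to 0.07 (edgeR adjusted p = 0.288).

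Transcripts of the 3 cyclins were then set on one scale, CPM per kilobase of the principal transcript, to ask whether their sum differed. The summed cyclin D level was 110.2, 106.4 and 103.8 CPM per kb in normoxic and 112.8, 106.3 and 100.1 CPM per kb in hypoxic PSCs, with means of 106.8 ± 3.22 and 106.4 ± 6.37 (SD, n = 3). The means differed by less than the spread in either condition. Ccnd1 was the minor component, with 6.01%, 11.3% and 9.46% of the sum at 21% O2 and 2.45%, 5.36% and 3.68% at 1% O2. Ccnd2 supplied 42.5% ± 5.60 and 50.5% ± 0.802 of it, and Ccnd3 48.6% ± 3.04 and 45.7% ± 2.23. These shares depend on the length used, and the order of Ccnd2 and Ccnd3 in normoxia turns with it. Per kb of the exon union, Ccnd1 made up 15.0% ± 4.78 and 6.30% ± 2.26 of the sum, Ccnd2 60.3% ± 6.76 and 70.8% ± 0.671, and Ccnd3 24.7% ± 2.10 and 22.9% ± 1.65.

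**Figure D2:**
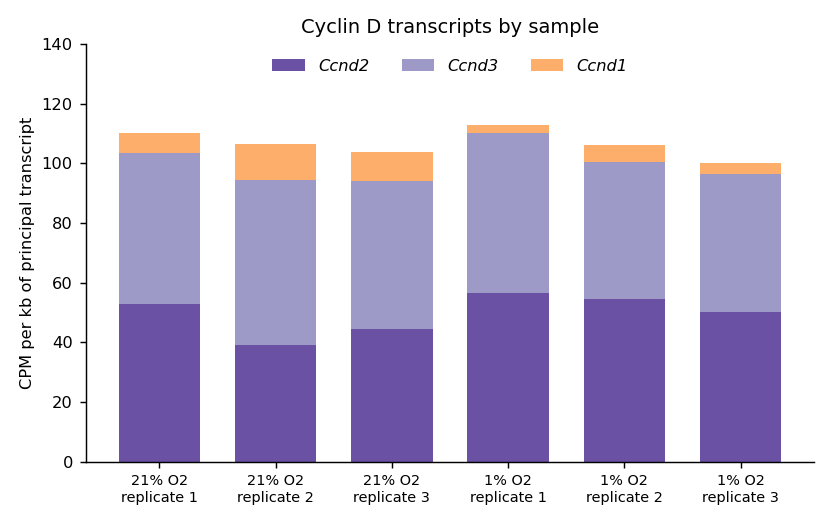
Stacked bars of Ccnd2, Ccnd3 and Ccnd1 transcripts in each sample, as CPM per kb of principal transcript (vertical axis from 0). The sums lie between 100.1 and 112.8 in all 6 samples, and the Ccnd1 segment on top is thinner at 1% O2.

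The ratio of Ccnd1 to the other D-type cyclins within each sample, in which library scaling cancels, was also lower in hypoxia. The log2 ratio of Ccnd1 to Ccnd2 counts was -3.75, -2.46 and -2.93 in normoxic and -5.11, -4.02 and -4.53 in hypoxic samples, with means of -3.05 ± 0.65 and -4.55 ± 0.55 (SD, n = 3), and the ratio of Ccnd1 to Ccnd3 differed by -1.15. For each of the 6 ratios examined here, the exact two-sided permutation test over 3 against 3 samples gave p = 0.1 (0.1 after Benjamini-Hochberg adjustment), the smallest p the design allows.

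Ccnd1 had by far the widest spread of the members among replicates. Its highest sample exceeded its lowest by 1.81 times in normoxic and 2.06 times in hypoxic PSCs, whereas this ratio was 1.02 to 1.35 and 1.07 to 1.17 for the other 9 members. The 3 genes whose profiles over the 6 samples were most like that of Ccnd1, among 9789 genes with a mean of at least 10 CPM, were C1qa, C1qb and Fcer1g. C1qa and C1qb encode subunits of complement C1q, made by macrophages, and Fcer1g encodes the shared chain of Fc receptors. Their mean-centred log2 CPM differed from that of Ccnd1 by a root mean square of 0.06, 0.06 and 0.07. C1qa fell by 1.26 on the log2 scale, C1qb by 1.20 and Fcer1g by 1.14. Of the 20 genes nearest to Ccnd1, a number chosen after the values were seen, 6 were in the immune marker list. That list does not hold C1qa or C1qb, so it does not count every immune cell gene among the 20.

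The summed immune markers, as a multiple of their normoxic mean, were 0.728, 1.27 and 0.999 in normoxic and 0.383, 0.683 and 0.467 in hypoxic replicates 1 to 3. Ccnd1 on the same scale was 0.699, 1.27 and 1.04 and then 0.291, 0.601 and 0.388. In both conditions replicate 2 was the highest and replicate 1 the lowest for both measures. Expressed per 1000 CPM of summed immune markers, a measure chosen after the values were seen, Ccnd1 was 27.4, 28.4 and 29.6 in normoxic and 21.7, 25.1 and 23.7 in hypoxic samples, 1.21-fold lower without overlap. The part of immune cell RNA in the Ccnd1 result was not tested, and in bulk samples fewer cells of a type and less RNA per cell cannot be told apart. Ccnd1 also shares 23.4% of its exon length with LTO1 on the opposite strand, and the strand setting of the counting is not given in the sources used here. LTO1 measured 21.8 ± 1.23 CPM in normoxic and 30.9 ± 2.40 CPM in hypoxic PSCs and was not called.

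**Figure D3:**
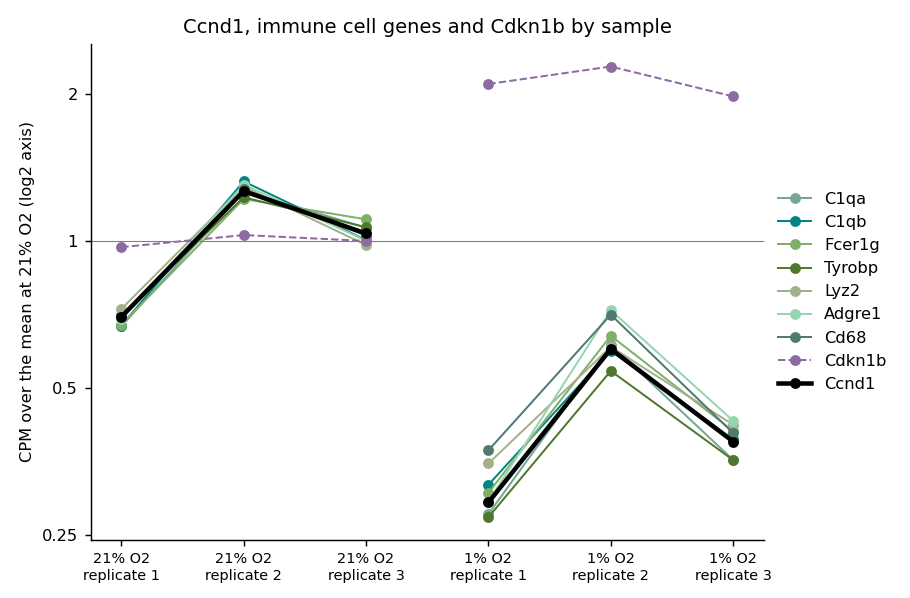
Level of Ccnd1 (black), of 7 immune cell genes (green) and of Cdkn1b (dashed) in each sample, as CPM divided by the gene's mean at 21% O2 on a log2 axis. Ccnd1 goes from 0.699 to 1.27 times its normoxic mean within normoxia and from 0.291 to 0.601 within hypoxia, close to the green lines. All 7 green genes are among the 20 profiles nearest to Ccnd1, so their closeness follows from that choice. Of the 13 tested immune markers 5 were not called. Cdkn1b is nearly level within each condition.

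All 3 CIP/KIP inhibitor genes were higher in hypoxic PSCs, with Cdkn1b and Cdkn1c about doubled and Cdkn1a up by a smaller factor. Their promoters are shown because these genes, with Mdm2, rose together. RefSeq promoter windows on GRCm38.p6 were matched for 7 members (10 windows), and Ccnd1, Ccnd2 and Cdkn1c had no entry. They were searched for the core of the hypoxia-inducible factor (HIF) element, ACGTG or GCGTG on either strand, and for the p53 decamer motif. The sequences below run 5′ to 3′ up to the first exon base of GENCODE M21, with HIF cores in capitals for Cdkn1b (chr6:134920151-134920400, plus strand) and Mdm2 (chr10:117710759-117711008, minus strand) and p53 decamers in capitals for the upstream start of Cdkn1a (chr17:29090729-29090975, plus strand).
Cdkn1b: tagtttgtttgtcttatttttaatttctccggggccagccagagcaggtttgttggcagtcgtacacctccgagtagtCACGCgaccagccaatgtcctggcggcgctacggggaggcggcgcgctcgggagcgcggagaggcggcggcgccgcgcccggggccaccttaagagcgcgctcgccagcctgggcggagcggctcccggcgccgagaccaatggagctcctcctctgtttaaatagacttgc
Mdm2: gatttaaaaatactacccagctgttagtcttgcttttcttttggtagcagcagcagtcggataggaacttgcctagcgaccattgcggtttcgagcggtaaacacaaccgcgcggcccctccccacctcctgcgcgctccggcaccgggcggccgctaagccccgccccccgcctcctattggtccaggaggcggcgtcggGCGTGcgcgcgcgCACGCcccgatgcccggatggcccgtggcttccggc
Cdkn1a: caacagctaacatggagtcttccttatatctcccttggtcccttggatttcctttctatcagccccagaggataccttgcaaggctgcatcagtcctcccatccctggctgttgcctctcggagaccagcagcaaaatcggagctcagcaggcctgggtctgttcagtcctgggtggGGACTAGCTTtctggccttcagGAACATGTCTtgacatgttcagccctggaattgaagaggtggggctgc
A HIF core lay in 6 of the 10 member windows and in 38.6% of all 32851 windows of 250 bases, and a p53 decamer in 3 of 10 and in 7.13%. Cdkn1b has its core 172 bases before the start, and the Mdm2 cores lie 49 and 36 bases before it. The Mdm2 window also holds a p53 decamer, 186 bases before the start and left in lower case above. The Cdkn1a decamers begin 73 and 51 bases before its upstream RefSeq start, and the window of its other start, not shown, holds a HIF core 206 bases before it. The Ccng2 window, also not shown, holds a HIF core 49 bases before the start and lies wholly within annotated Ccng2 exons. Members that were not called hold the same motifs, with 4 HIF cores in a window of Cdkn2a, 1 in a window of Ccnd3 and a p53 decamer in that of Trp53. These matches describe letters in a window and are not evidence of binding.

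Cdkn1b (ENSMUSG00000003031, chromosome 6, 134920401 to 134925513, plus strand) encodes p27, an inhibitor whose abundance is typical of quiescent cells. It measured 60.8, 64.4 and 62.6 CPM in normoxic and 131, 143 and 124 CPM in hypoxic samples. Every hypoxic value was well above every normoxic one. Cdkn1b rose 2.12-fold (log2 fold change 1.08, SE 0.06, 95% confidence interval 0.94 to 1.23, edgeR adjusted p = 1.32e-06).

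Cdkn1c (ENSMUSG00000037664, chromosome 7, 143458339 to 143461050, minus strand), an imprinted gene for p57, measured 15.7, 14.3 and 16.4 CPM at 21% O2 and 30.4, 31.5 and 27.2 CPM at 1% O2. The groups were again fully separated, and Cdkn1c rose 1.92-fold (log2 fold change 0.94, SE 0.08, edgeR adjusted p = 1.51e-05). A predicted antisense gene, Gm44732, overlaps 30.7% of its exon length.

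Cdkn1a (ENSMUSG00000023067, chromosome 17, 29090976 to 29100727, plus strand) encodes p21, the best known effector of p53 in arrest. It was already abundant at 21% O2, with 307, 289 and 302 CPM, and reached 465, 472 and 430 CPM at 1% O2. The 3 hypoxic samples stood above the normoxic ones, and Cdkn1a rose 1.52-fold (log2 fold change 0.61, SE 0.06, 95% confidence interval 0.47 to 0.74, edgeR adjusted p = 2.64e-05). Since this lies just past the fold of 1.5, its call was lost at a log2 fold change of 0.58 without normoxic replicate 2, without hypoxic replicate 2, under upper-quartile scaling or with no filter on low counts. An antisense gene, AC167363.2, overlaps 7.68% of its exon length and was itself called higher at a low level (1.01 ± 0.172 to 5.36 ± 1.42 CPM).

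Ratios between the inhibitors were also compared within samples. The log2 ratio of Cdkn1a to Cdkn1b was 2.33, 2.17 and 2.27 in normoxic and 1.82, 1.73 and 1.80 in hypoxic samples, a difference of -0.47. For Cdkn1a over Cdkn1c the difference was -0.33. Both pairs of groups were separated, with the exact permutation p of 0.1 given above. Among replicates of a condition the CIP/KIP genes varied by 1.06 to 1.16 times between the highest and the lowest sample. The summed immune markers varied by 1.75 and 1.78 times. The part of immune cell RNA in the CIP/KIP results was not tested.

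Cdkn2a (ENSMUSG00000044303, chromosome 4, 89274471 to 89294653, minus strand) encodes the Cdk4 and Cdk6 inhibitor p16Ink4a and, in another reading frame, the Mdm2 antagonist p19Arf, which a count per gene cannot separate. It measured 13.0, 11.3 and 11.2 CPM in normoxic and 10.5, 9.64 and 8.96 CPM in hypoxic samples. Hypoxic samples were all lower by a small margin, with a log2 fold change of -0.29 (SE 0.10, 95% confidence interval -0.52 to -0.05, edgeR adjusted p = 0.0366) that stayed below the fold threshold, and DESeq2 gave an adjusted p of 0.0711. Of the 3 other INK4 genes 0 were called higher and 1 lower, beside 18.9% higher and 15.3% lower among all tested genes, with a median log2 fold change of 0.17. Cdkn2c (p18) measured 39.3, 56.5 and 35.6 CPM in normoxic and 8.60, 8.49 and 8.96 CPM in hypoxic PSCs, 5.05-fold lower (log2 fold change -2.33, SE 0.16, edgeR adjusted p = 3.88e-06). Cdkn2b (p15) at 23.0 ± 1.41 and 33.0 ± 2.38 CPM (log2 fold change 0.52, SE 0.08) and Cdkn2d (p19Ink4d) at 17.7 ± 0.536 and 19.9 ± 1.42 CPM (0.17, SE 0.08) were not called.

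Trp53 (ENSMUSG00000059552, chromosome 11, 69580359 to 69591873, plus strand) differed little at the transcript level. It measured 61.1, 63.3 and 61.7 CPM in normoxic and 69.0, 70.0 and 75.6 CPM in hypoxic samples. Groups did not overlap, but the difference of 1.15-fold (log2 fold change 0.21, SE 0.05, 95% confidence interval 0.08 to 0.33, edgeR adjusted p = 0.0092) was under the fold threshold. The p53 protein is controlled largely by degradation, which these data do not measure.

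Mdm2 (ENSMUSG00000020184, chromosome 10, 117688875 to 117710758, minus strand) measured 98.2, 103 and 98.0 CPM in normoxic and 147, 157 and 152 CPM in hypoxic PSCs. All hypoxic samples were higher, and Mdm2 rose 1.53-fold (log2 fold change 0.61, SE 0.05, 95% confidence interval 0.49 to 0.73, edgeR adjusted p = 1.16e-05). Its call was lost without hypoxic replicate 2, at a log2 fold change of 0.58, and with Cdkn1a lost as well 3 members were then called higher. The log2 ratio of Mdm2 to Trp53 was 0.69, 0.70 and 0.67 at 21% O2 and 1.09, 1.17 and 1.01 at 1% O2, a difference of 0.40. The Mdm2 homolog Mdm4, which restrains p53 activity, was at 90.8 ± 11.1 and 128 ± 7.18 CPM and was not called (log2 fold change 0.50, edgeR adjusted p = 0.00092), but it was called at 0.59 without normoxic replicate 2.

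Other target genes of p53 were called in both directions. Of 40 listed targets, chosen without these 2 genes, 39 were tested, 5 were called higher, 10 lower and 24 not called, or 38.5% called against 34.2% of all tested genes, with a median log2 fold change of 0.02. The 5 higher genes were Fas, Sfn, Plk2, Ddit4 and Ddb2. Fas, a death receptor, rose from 8.10 ± 0.970 to 16.5 ± 0.995 CPM (log2 fold change 1.03, SE 0.11). Ddit4, an inhibitor of mTORC1 also known as a hypoxia-inducible gene, rose from 492 ± 43.3 to 868 ± 88.0 CPM (0.82, SE 0.09).

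Fdxr, a mitochondrial reductase, moved the farthest of the targets, from 104, 111 and 101 CPM to 29.3, 28.8 and 30.7 CPM, and fell by 1.83 on the log2 scale (SE 0.06, edgeR adjusted p = 5.54e-08). The other genes called lower, named after their values were seen, were Sulf2, Gdf15, Gtse1, Btg2, Phlda3, Tigar, Dcxr, Ei24 and Rps27l. The Ei24 call was lost without normoxic replicate 1 (-0.58) or hypoxic replicate 3 (-0.57). Gtse1 is itself expressed in cycling cells, and Btg2 is an antiproliferative gene. Gadd45a, a stress gene of the same list, measured 126, 117 and 129 CPM in normoxic and 112, 158 and 128 CPM in hypoxic samples, overlapped and was not called (edgeR adjusted p = 0.474).

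**Figure D4:**
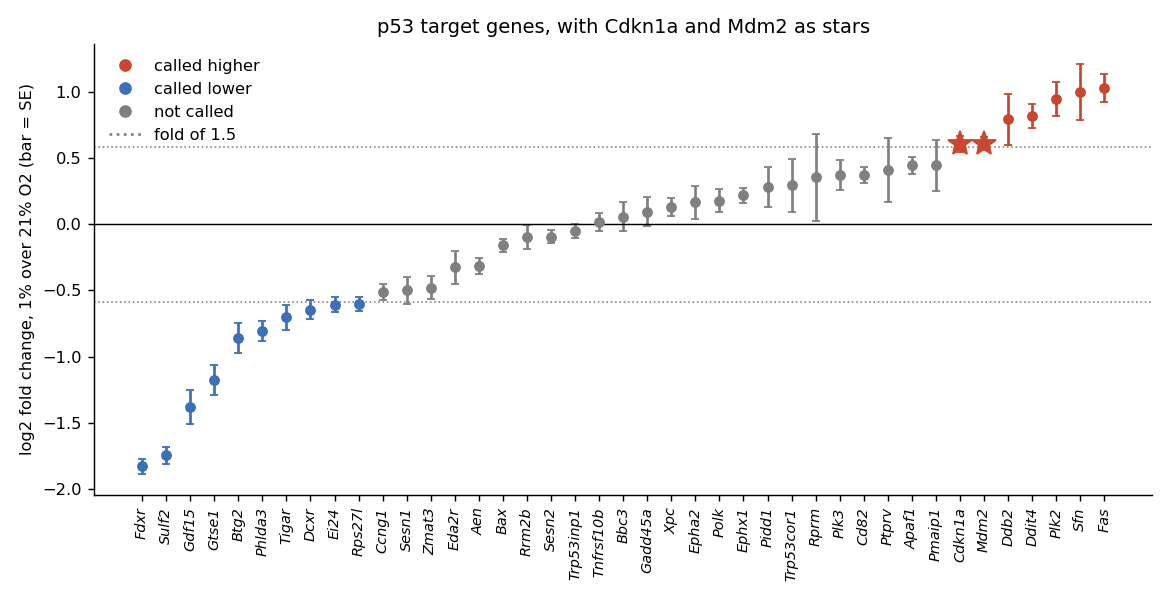
Log2 fold change (1% over 21% O2, bars show SE) of the 39 tested p53 target genes in rank order, with Cdkn1a and Mdm2 added as stars and the fold of 1.5 dotted. Called genes lie at both ends, 10 lower and 5 higher, and both stars lie just above the dotted line at 0.61.

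Of 20 genes that act on p53, 18 were tested, 1 was called higher, 1 lower and 16 were not called, against 34.2% called among all tested genes, and the median log2 fold change was 0.07. Without the fold threshold 6 were higher and 2 lower, beside 5150 higher and 5018 lower of all 16207 tested genes. Atr, the kinase that responds to stalled replication forks, rose from 15.0 ± 0.626 to 34.7 ± 1.46 CPM (log2 fold change 1.21, SE 0.07, edgeR adjusted p = 9.91e-07). Hipk2, a kinase that phosphorylates p53, fell by 0.82 on the log2 scale (SE 0.16, edgeR adjusted p = 0.00158).

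Ccng2 had the largest fold change of the members. This unconventional cyclin is linked to arrest and is a known target of FOXO factors, and unlike the D-type cyclins it is not known to drive G1 entry. Ccng2 (ENSMUSG00000029385, chromosome 5, 93267257 to 93276231, plus strand) measured 67.1, 65.6 and 67.1 CPM in normoxic and 195, 198 and 180 CPM in hypoxic samples. All hypoxic samples exceeded all normoxic ones by a wide margin, and Ccng2 rose 2.87-fold (log2 fold change 1.52, SE 0.06, 95% confidence interval 1.39 to 1.65, edgeR adjusted p = 9.52e-08).

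Its paralog Ccng1, a p53 target, was not called, with 202, 181 and 182 CPM in normoxic and 137, 129 and 129 CPM in hypoxic samples. The groups did not overlap, and the log2 fold change of -0.51 (SE 0.06) was under the fold threshold. The log2 ratio of Ccng2 to Ccng1 counts, not corrected for length, was -1.59, -1.46 and -1.44 in normoxic and 0.51, 0.62 and 0.48 in hypoxic samples, a difference of 2.03. The difference does not depend on gene length, but the order of the genes does: in hypoxic PSCs the mean level of Ccng2 was above that of Ccng1 per kb of principal transcript (67.9 and 37.5) and below it per kb of the exon union (35.0 and 37.5). The 3 profiles most like that of Ccng2 belonged to Nfkb1 (root mean square difference of 0.05 on the log2 scale), Smg6 (0.06) and Rnf126 (0.06). These 3 genes had log2 fold changes of 1.52, 1.44 and 1.52.

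FOXO factors, which are active when growth factor signaling is low and induce Cdkn1b as well as Ccng2, were examined with their other targets. Of 20 genes 3 were called higher, 3 lower and 14 not called, close to or below the shares over all tested genes (18.9% higher and 15.3% lower), and the median log2 fold change was 0.41. Fbxo32, a ubiquitin ligase subunit, rose from 15.4 ± 1.93 to 31.7 ± 0.297 CPM (log2 fold change 1.04, SE 0.09), and Foxo3 itself rose from 70.4 ± 5.95 to 118 ± 2.77 CPM (0.74, SE 0.07). Trim63, another ubiquitin ligase, fell by 2.14 on the log2 scale at a low level of 2.35 ± 0.416 and 0.527 ± 0.0964 CPM. Foxo1 was not called, at 25.7 ± 0.776 and 21.3 ± 0.609 CPM (-0.27, SE 0.06). Without hypoxic replicate 1 the count of higher genes was 5.

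**Figure D5:**
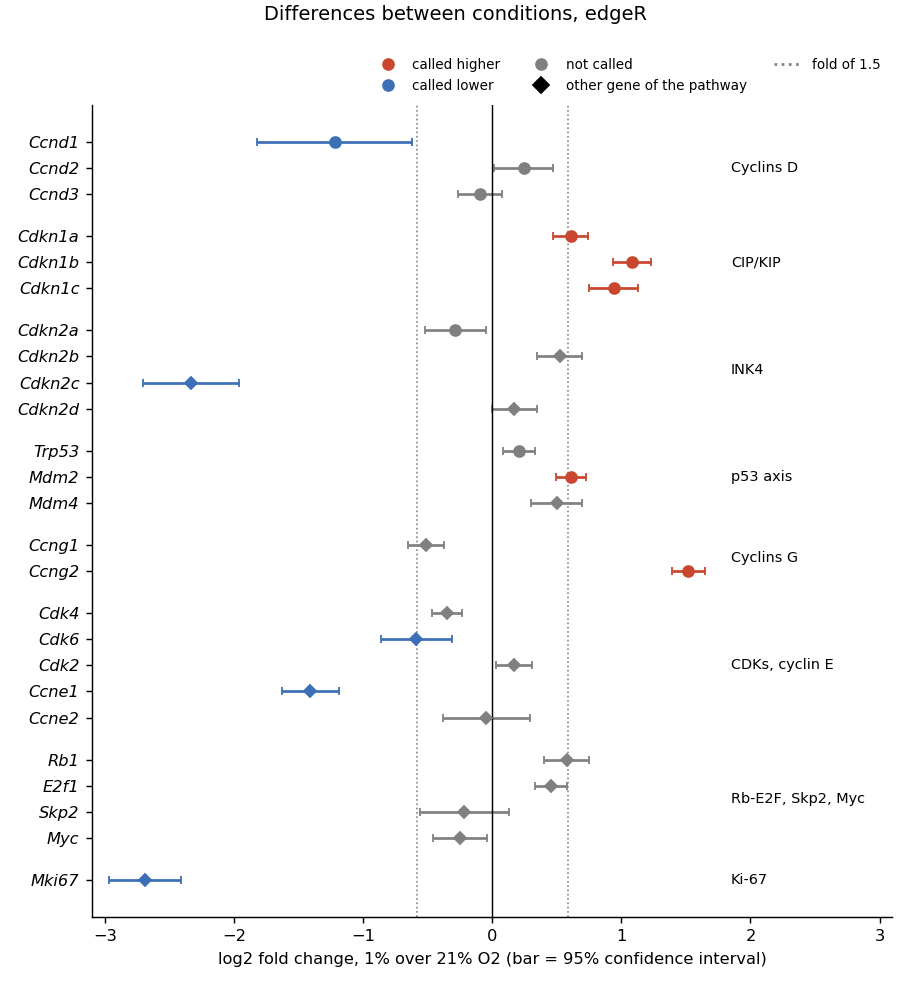
Log2 fold change (1% over 21% O2) with 95% confidence intervals for the 10 members (circles) and the other named genes of the pathway (diamonds), colored by call, with the fold of 1.5 dotted. CIP/KIP genes, Mdm2 and Ccng2 lie to the right, Ccnd1, Cdkn2c, Ccne1 and Mki67 to the left, and the Ccnd1 interval is the widest of the members.

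The loss of proliferation transcripts was broad. Of 25 proliferation markers 23 were called lower, 0 higher and 2 (Pcna and Mcm7) not called, beside 15.3% lower and 18.9% higher among all tested genes, with a median log2 fold change of -2.07. Pcna lay near the threshold, at -0.55, and was called without normoxic replicate 1, normoxic replicate 3 or hypoxic replicate 2. Mki67, which encodes Ki-67, measured 41.7, 42.4 and 47.1 CPM in normoxic and 5.38, 6.80 and 8.01 CPM in hypoxic samples, 6.45-fold lower (log2 fold change -2.69, SE 0.12, edgeR adjusted p = 3.18e-07). The mitotic cyclin Ccnb1 had the lowest value of the list at -2.96 (SE 0.17). The summed level of the list was 582 to 710 CPM at 21% O2 and 208 to 233 CPM at 1% O2.

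The kinases that pair with the D-type and E-type cyclins were measured next. Cdk4 was at 269 ± 3.15 and 211 ± 5.74 CPM and was not called (log2 fold change -0.35, SE 0.05, edgeR adjusted p = 0.000278). Cdk6 measured 9.55, 8.69 and 10.1 CPM in normoxic and 5.66, 7.05 and 6.13 CPM in hypoxic PSCs and was called lower, just past the threshold (log2 fold change -0.59, SE 0.12, edgeR adjusted p = 0.00245). The Cdk6 call was lost without hypoxic replicate 1 (-0.52), normoxic replicate 3 (-0.54) or hypoxic replicate 3 (-0.57) and under the stricter filter (-0.57). Cdk2, the partner of cyclin E, was at 33.8 ± 1.79 and 37.9 ± 1.23 CPM and not called.

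The E-type cyclins, which act after the D-type in G1, were unlike each other. Ccne1 fell by 1.41 on the log2 scale (SE 0.10, edgeR adjusted p = 3.35e-06), from 19.5 ± 1.87 to 7.35 ± 0.288 CPM, and Ccne2 overlapped between conditions at 5.43 ± 0.867 and 5.27 ± 0.381 CPM. Rb1, the retinoblastoma gene, was at 13.9 ± 0.839 and 20.7 ± 0.686 CPM and lay just under the fold threshold (log2 fold change 0.58, SE 0.08), which it passed without normoxic replicate 2 (0.59), normoxic replicate 3 (0.60) or hypoxic replicate 3 (0.60) and under the stricter filter (0.59). E2f1 was at 34.7 ± 1.33 and 47.5 ± 0.844 CPM (0.45, SE 0.06) and was not called. In the list of 20 cyclin E and A, CDK and Rb-E2F genes 0 were called higher, 7 lower and 13 not called, beside 18.9% higher and 15.3% lower among all tested genes, with a median of -0.14, and the lowest was Ccna2 at -2.35 (SE 0.15).

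Subunits and receptors of the SCF, APC/C and CRL4 ubiquitin ligases, and other ligases that turn over G1 regulators, gave 0 higher, 3 lower and 13 not called of 16, beside 15.3% lower and 18.9% higher among all tested genes, with a median of -0.15. The lowest was Cdc20, the mitotic APC/C activator, at a log2 fold change of -2.38 (SE 0.18). Skp2, the SCF subunit that targets p27, was at 7.51 ± 1.22 and 6.47 ± 0.795 CPM and overlapped between conditions. Of 13 DREAM and MuvB genes, whose complexes repress cell cycle genes in quiescence and activate them in mitosis, 0 were called higher, 3 lower and 10 not called (median -0.17) beside the same shares over all tested genes, and the lowest was Foxm1 at -1.48 (SE 0.13). Some genes, such as Ccna2, Cdc20 and Foxm1, stand in more than one of these lists.

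Of 19 transcription factors known to induce cyclin D genes 17 were tested, 6 were called higher, 1 lower and 10 not called, with a median of 0.37, against 18.9% higher and 15.3% lower among all tested genes. Without the fold threshold 8 of the 17 were higher and 6 lower, beside 5150 higher and 5018 lower of all 16207 tested genes. Fosl1, an AP-1 subunit, rose from 15.2 ± 0.603 to 49.9 ± 1.44 CPM (log2 fold change 1.72, SE 0.06, edgeR adjusted p = 8.01e-08). Egr1, an immediate early gene, measured 189, 216 and 267 CPM in normoxic and 45.2, 107 and 148 CPM in hypoxic samples and was called lower (-1.16, SE 0.34, edgeR adjusted p = 0.0139). The number called lower was 0 without normoxic replicate 3, 2 without normoxic replicate 2 or hypoxic replicate 3, and 3 without normoxic replicate 1 or hypoxic replicate 2. Myc was at 38.6 ± 3.61 and 32.4 ± 3.12 CPM, overlapped and was not called.

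Levels of the members were then ordered per length, as CPM per kb of the principal transcript. In normoxic PSCs the order was Cdkn1a (143.9 ± 4.43), Ccnd3 (51.9 ± 2.99), Ccnd2 (45.5 ± 6.94), Trp53 (35.0 ± 0.657), Mdm2 (32.2 ± 0.877), Ccng2 (23.7 ± 0.316), Cdkn1b (13.8 ± 0.393), Cdkn2a (13.2 ± 1.13), Ccnd1 (9.49 ± 2.70) and Cdkn1c (8.13 ± 0.569). Neighbors whose samples overlapped were Ccnd3 with Ccnd2, Cdkn1b with Cdkn2a, and Ccnd1 with Cdkn1c. In hypoxic PSCs Cdkn1a stayed first at 219 ± 10.8 and Ccng2 was second at 67.9 ± 3.53. Next came Ccnd2 (53.8 ± 3.25), Mdm2 (49.1 ± 1.57) and Ccnd3 (48.6 ± 4.35), whose samples overlapped in turn, and then Trp53 (40.4 ± 1.99) and Cdkn1b (29.2 ± 2.08). The lowest were Cdkn1c (15.6 ± 1.18), Cdkn2a (10.8 ± 0.855) and Ccnd1 (4.05 ± 1.503). Per kb of the exon union, Cdkn1a was again first in both conditions, Ccnd2 was second, and Ccng2 went from rank 7 (12.2 ± 0.163) to rank 3 (35.0 ± 1.82), where its samples overlapped those of Ccnd2. On that scale Ccnd1 was the lowest in both, at 7.54 ± 2.15 in normoxic PSCs, overlapping Cdkn1c at 7.58 ± 0.531, and at 3.21 ± 1.19 in hypoxic PSCs.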

How the data were processed

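Poly(A) RNA of 6 samples (3 at 21% and 3 at 1% O2) was sequenced by the authors, aligned to GRCm38 with STAR 2.6.1b and quantified with RSEM 1.3.1, per the study's methods and the submitters' processing notes. The deposited values were expected counts per gene, whole numbers in the table used here. The annotation release and strand setting are not given in the sources used here. Of the gene IDs, 55240 matched GENCODE M21 and 181 did not, and 5 transgene features were left out. Genes passing filterByExpr (16207) were scaled by TMM and tested across all 6 samples with edgeR 4.0.16 (quasi-likelihood F test, oxygen as the only term, limma 3.58.1, R 4.3.3), with Benjamini-Hochberg adjustment over all tested genes. Calls required an adjusted p below 0.05 and a fold beyond 1.5, and the SE was the log2 fold change divided by the square root of F. The fit was tested on simulated counts with known changes. Ratios used counts plus 0.5. Library totals of 24749601 to 31925054 counts set the precision, and replicates differed beyond sampling noise (chi-square per degree of freedom of 5.68 to 22.5). The rule for named genes took all members, a set of partners, the called gene with the highest and lowest change of each list at a mean of at least 1 CPM, and the 3 nearest profiles of Ccng2 and Ccnd1. Members and lists were chosen with earlier results of these data known. The table names the Skp1 gene Skp1a, an alias found after the table was seen. Alternatives were DESeq2 1.42.0, RLE and upper-quartile scaling, a stricter filter (1 CPM in 3 samples), no filter, no fold threshold, a replicate block, a pseudocount of 1 and each sample left out. Exon-union length, each sample left out for the summed cyclin D level, and the same settings for named genes that are no members were added after seeing the data. One immune marker and one further allele of the organoid line are not reported here.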

Additional observations from a re-analysis of the deposited data

How the results depend on the processing

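Over all alternatives the log2 fold change ranged from -1.56 to -1.02 for Ccnd1, 1.49 to 1.56 for Ccng2, 1.02 to 1.13 for Cdkn1b and 0.88 to 1.00 for Cdkn1c, and these 4 calls held in each. For Ccnd2 it was 0.14 to 0.36, for Ccnd3 -0.17 to -0.05, for Cdkn2a -0.35 to -0.22 and for Trp53 0.16 to 0.23, with no call wherever the fold threshold was applied. Cdkn1a was not called at 0.58 under upper-quartile scaling or with no filter on low counts. With 1 sample left out, it ranged from 0.58 to 0.65 and Mdm2 from 0.58 to 0.63, 3 to 5 members were called higher, and called genes were 0 to 1 (Rb-E2F list, higher), 1 to 2 (p53 regulators, in each direction), 3 to 5 (FOXO list, higher) and 0 to 3 (cyclin D inducers, lower). The sum of the 3 cyclins D per kb, hypoxic minus normoxic, was -0.43, 0.47 with exon-union length and -3.64 to 2.73 with 1 sample left out. The last range lay within the hypoxic SD of 6.37, but its lower end exceeded the normoxic SD of 3.22.

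Without the fold threshold 10168 genes passed, 5150 higher and 5018 lower, and 6 members were higher and 2 lower. In the lists this gave 5 higher and 10 lower (Rb-E2F), 1 higher and 1 lower (INK4), 1 higher and 7 lower (ubiquitin ligases), 6 higher and 2 lower (p53 regulators), 9 higher and 16 lower (p53 targets), 11 higher and 5 lower (FOXO), 1 higher and 5 lower (DREAM) and 8 higher and 6 lower (cyclin D inducers). The stricter filter gave 1 higher gene in the Rb-E2F list. With no filter on low counts 2 p53 regulators were lower, and 2 cyclin D inducers were lower with no filter or upper-quartile scaling. With 1 sample left out, the uncalled log2 fold changes of Ccne2 (-0.135 to 0.085) and Gadd45a (-0.053 to 0.203) took either sign. The cause of these shifts was not tested beyond the settings themselves.

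Samples with the same replicate number correlated in their deviations from the group means at 0.142, 0.139 and 0.0378, so not every pair exceeded 0.1 and the numbers were not used as pairs, although each sample correlated best with its own number. With a replicate block 5572 genes were called against 5547 without it, Ccnd1 was at -1.25 (edgeR adjusted p = 7.85e-06) and Ccnd2 at 0.25 (0.0224), and no member's call changed. DESeq2 called 5549 genes and the same number of members. With 3 samples a condition, folds near 1.5 are not resolved from it, and the low counts of Trim63, Sfn and Ccne2 limit their precision.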
